A study of Mus musculus with 8 samples.

Results

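The replication-dependent histone genes encode the linker histone H1 and the core histones H2A, H2B, H3 and H4 that package newly copied DNA. They were taken as the protein-coding rows whose Ensembl identifier carries, in GENCODE M21, a name of the form Hist1h, Hist2h, Hist3h or Hist4h. This gave 64 genes of 23355 rows in the table (16006 protein-coding): 6 for H1, 16 for H2A, 18 for H2B, 11 for H3 and 13 for H4. The deposited table uses newer symbols for most of them, so that its own names match the same pattern for 8 rows only. The older names are used below because they give type and cluster. Cluster 1 on chromosome 13 held 54 of the genes, cluster 2 on chromosome 3 held 7, cluster 3 on chromosome 11 held 2, and cluster 4 on chromosome 6 held 1. Hist2h2aa1, Hist2h2aa2 and Hist2h3c1 had no row under their GENCODE M21 identifiers and so could not be analysed here.

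RNA came from buccal (cheek) epithelium of wild type C57BL/6 mice kept free of specific pathogens, with 4 mice at 8 weeks of age (labelled adult) and 4 at 1 week (labelled postnatal). Mice of both ages were untreated. The epithelium was lifted with dispase II, its cells were sorted by flow cytometry, and stranded libraries were made from total RNA with ribosomal RNA removed. Sex, sorting gate and batch are not among the labels. Total RNA matters here, because libraries that select poly(A) tails lose most histone transcripts. Libraries of 8 weeks held 13037171 to 16807773 counts, and those of 1 week held 11747783 to 13169992. The 6 markers of epithelium summed to 23372 to 31190 CPM (read counts normalised to the TMM-scaled library size) at 8 weeks and 29834 to 35222 CPM at 1 week, with 0 of the 6 called between the ages by edgeR (4 at an unadjusted p under 0.05). The authors' deposited table called 3 of the 6: Krt14, a keratin of basal cells (log2 fold change -0.48, adjusted p = 0.00724), Krt4, a keratin of upper layers (0.32, adjusted p = 0.0350), and the adhesion gene Cdh1 (0.27, adjusted p = 0.0490). Krt14 had 4979 to 7182 CPM at 8 weeks and 7444 to 9356 at 1 week, and Krt4 had 4153 to 5330 and 3419 to 4131 CPM. The part of a differing share of basal cells in the histone values was not tested. By the quasi-likelihood test of edgeR, 952 of 14533 genes tested were called between the ages at an adjusted p under 0.05, 484 higher and 468 lower at 8 weeks.

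Most of these genes are expressed in S phase, when each cell needs histones for a second genome, and their transcripts are degraded when replication ends. Their mRNAs are the main class of mRNA in animal cells that ends without a poly(A) tail. The end is set by a stem-loop just behind the stop codon, which the stem-loop binding protein Slbp holds, and by cleavage with the help of the U7 small nuclear ribonucleoprotein. In a stratified epithelium such as the cheek, the dividing cells lie in and near the basal layer.

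The stem-loops are shown because they define this class of transcript and stand in place of the poly(A) tail. Each was read from the longest GENCODE M21 transcript on GRCm38, in the sense direction. A match had a 6-base arm beginning GG, a 4-base loop of the form TNTN with no G at the places marked N, and a second arm pairing with the first, with G-T pairs allowed. The 16 bases of arm, loop and arm stand in capitals, with the bases around them in lower case.
Hist1h1c: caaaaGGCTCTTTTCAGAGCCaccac
Hist1h1t: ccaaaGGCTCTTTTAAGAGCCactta
Hist1h2ac: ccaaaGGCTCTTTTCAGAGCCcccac
Hist2h2ac: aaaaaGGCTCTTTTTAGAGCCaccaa
Hist1h2bk: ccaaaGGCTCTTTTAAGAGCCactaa
Hist1h3b: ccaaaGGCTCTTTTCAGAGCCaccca
Hist1h3g: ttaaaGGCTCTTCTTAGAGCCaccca
Hist1h4b: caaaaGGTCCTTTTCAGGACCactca
Hist1h4d: ccaaaGGCCCTTTTCAGGGCCactac
Hist2h4: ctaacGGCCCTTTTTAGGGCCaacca

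These windows lie at chr13:23739507-23739532 (plus strand) for Hist1h1c, chr13:23696520-23696545 (plus) for Hist1h1t, chr13:23683472-23683497 (minus) for Hist1h2ac and chr3:96220413-96220438 (minus) for Hist2h2ac. That of Hist1h2bk lies at chr13:22036295-22036320 (plus), that of Hist1h3b at chr13:23752815-23752840 (plus) and that of Hist1h3g at chr13:23535884-23535909 (plus). The H4 windows lie at chr13:23757361-23757386 (plus) for Hist1h4b, chr13:23581945-23581970 (plus) for Hist1h4d and chr3:96262934-96262959 (minus) for Hist2h4. All fall in 3′ untranslated regions.

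Such a stem-loop was found behind the coding sequence of 42 of the 64 genes. Among the 49 genes whose annotated transcript runs at least 16 bases past the coding sequence the share was 85.7%. It began 24 to 57 bases after the last codon before the stop codon, with a median of 34. The bases of the stop codon are included in these distances. Among 18626 other protein-coding genes a match stood anywhere behind the coding sequence in 2.64%, and no farther than in the histone genes in 0.0698%. This distance limit was taken from the histone genes themselves. Replacement variants and the histone genes without a row were not set apart from the other genes. The arms differed between H4 and the other types. The form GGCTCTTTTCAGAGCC was the commonest, with 22 genes, of which 8 encode H2A, 7 H2B, 4 H3 and 3 H1. Of the 12 H4 genes with a match, 10 had an arm of GGCCCT and 2, Hist1h4b and Hist1h4j, an arm of GGTCCT. Every match in the other 4 types had an arm of GGCTCT.

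The histone genes together took 0.499%, 0.720%, 0.482% and 0.571% of all counts in 8 weeks 1 to 4, against 0.512%, 0.584%, 0.650% and 0.568% in 1 week 1 to 4. Summed over the 64 genes, the level was 5513 ± 1110 CPM at 8 weeks and 5985 ± 253 CPM at 1 week (SD, n = 4 each). The ratio of the 2 means was 0.921, which is a difference smaller than the spread among the libraries of 8 weeks. The single libraries gave 4568, 7026, 4810 and 5650 CPM at 8 weeks and 5852, 5792, 6352 and 5944 CPM at 1 week. The range at 8 weeks enclosed that at 1 week: 8 weeks 2 was the highest of all libraries, and 8 weeks 1 and 8 weeks 3 were the lowest. In whole tissue or sorted pools, fewer cells in S phase and less histone RNA per cell cannot be told apart.

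**Figure D1:**
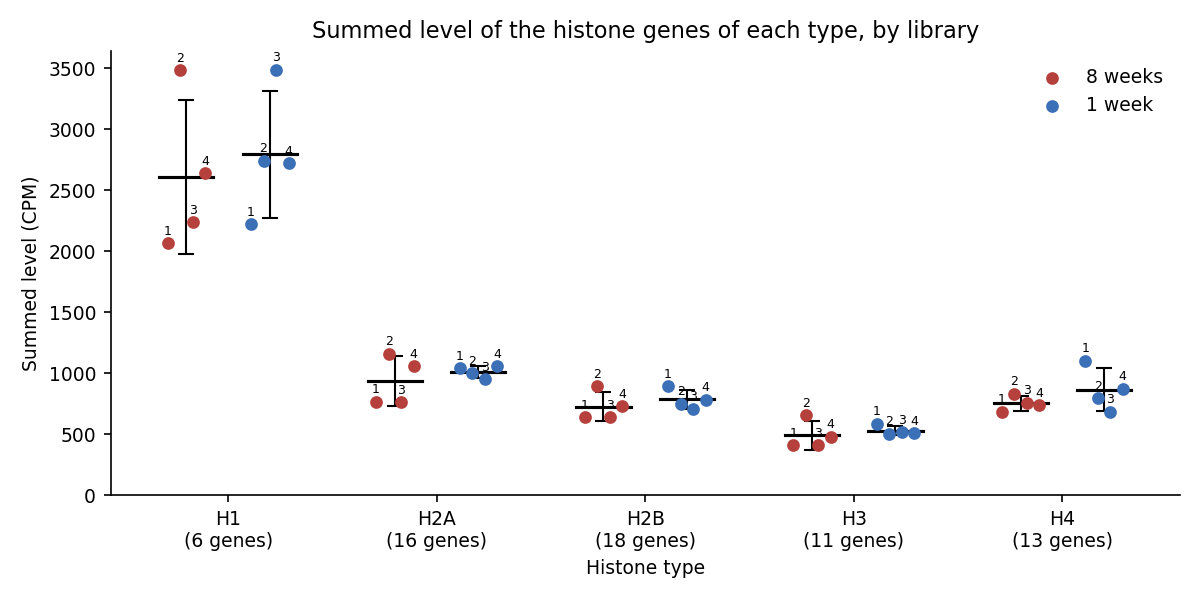
Summed level of the histone genes of each type in CPM (y axis, from 0) for 8 weeks (red, left) and 1 week (blue, right), with 1 point per library marked by its number. Bars give the mean and SD over 4 libraries; for every type the groups overlap, and library 8 weeks 2 is the highest of its age.

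No histone gene passed the test between the ages. Of the 64 genes 57 had enough counts to be tested, and by edgeR 0 of the 57 were called, beside 6.55% of all genes tested. At an unadjusted p under 0.05 there were 2 of 57 (3.51%), Hist1h2bj and Hist1h4f, both lower at 8 weeks, beside 27.8% of all genes. DESeq2 and limma-voom also called 0, beside 2069 and 1640 of all 14533 genes tested. They gave 2 and 5 histone genes at an unadjusted p under 0.05. None of the 64, a count of 0, had an adjusted p under 0.05 in the authors' deposited table, beside 10.1% of the genes tested here. The lowest adjusted p of a histone gene in the authors' deposited table was 0.159. For 0 of the 57 genes were the 2 ages free of overlap in CPM, beside 14.8% of all genes. The median standard error of the log2 fold change was 0.17 for the histone genes and 0.16 for all genes tested.

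How large a change the data leave room for can be read from the intervals. The 95% interval of the log2 fold change lay inside a 2-fold change in either direction for 47 of the 57 genes, and reached past it for 10. Fold changes themselves ran from -0.51 (Hist1h2bl) to 0.57 (Hist1h2bn) on the log2 scale. The median was -0.16, beside -0.00 for all genes tested, and 47 of the 57 were below 0. By type the median log2 fold change was -0.15 for H1, -0.11 for H2A, -0.23 for H2B, -0.12 for H3 and -0.20 for H4. By cluster the median was -0.16 over 48 tested genes of cluster 1, -0.12 over 6 of cluster 2, -0.15 over 2 of cluster 3 and -0.24 for the 1 gene of cluster 4.

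**Figure D2:**
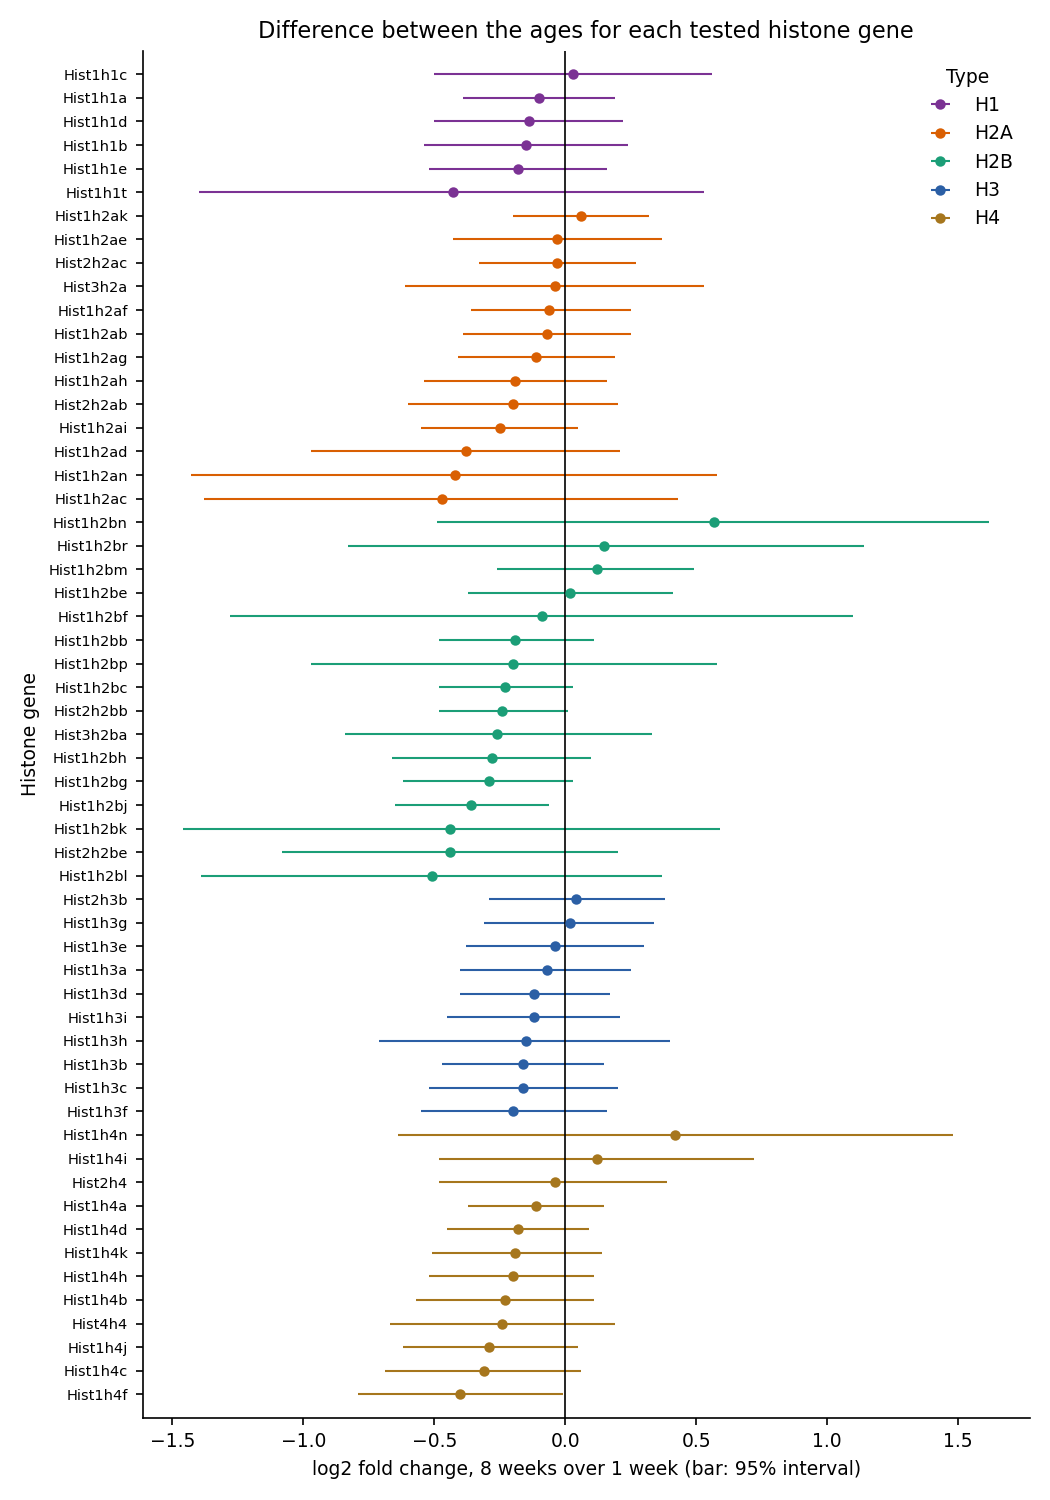
Log2 fold change of 8 weeks over 1 week (x axis) for the 57 tested histone genes (rows, grouped and coloured by type), with 95% intervals from edgeR. Points are mostly left of 0, from -0.51 to 0.57, and all intervals but those of Hist1h2bj and Hist1h4f reach 0.

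Transcript length moved with the fold changes. Tested protein-coding genes were put in 5 classes of about equal size by length. In the shortest class (transcripts of up to 2045 bases, 2457 genes) the median log2 fold change was -0.25 and 80.1% were below 0. In the longest class the median was 0.21. Histone transcripts are short, with a median of 572 bases against 3468 for tested protein-coding genes, and 50 of the 57 stood in the shortest class, where their median was -0.17. Of all 57, 82.5% were below 0. With an offset for transcript length and GC content the median of the histone genes was 0.11, with 39 of 57 above 0, and that of all genes was -0.03. The direction of the histone median is thus reversed by this correction. The correction did not remove the trend in full: the shortest class still had a median of -0.12, with 69.5% below 0. Length was that of the longest annotated transcript. Hist1h1d, with 7425 bases there, moved from -0.14 to -0.35. Under the correction 0 of 57 were called, beside 378 of all 14533 genes tested. The libraries also differed in this respect within an age: their slope on length, in log2 units per doubling, was 0.19, -0.02, 0.15 and 0.03 in 8 weeks 1 to 4 and -0.17, -0.04, -0.07 and -0.07 in 1 week 1 to 4. The part of length in the histone values of single libraries was not tested.

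**Figure D3:**
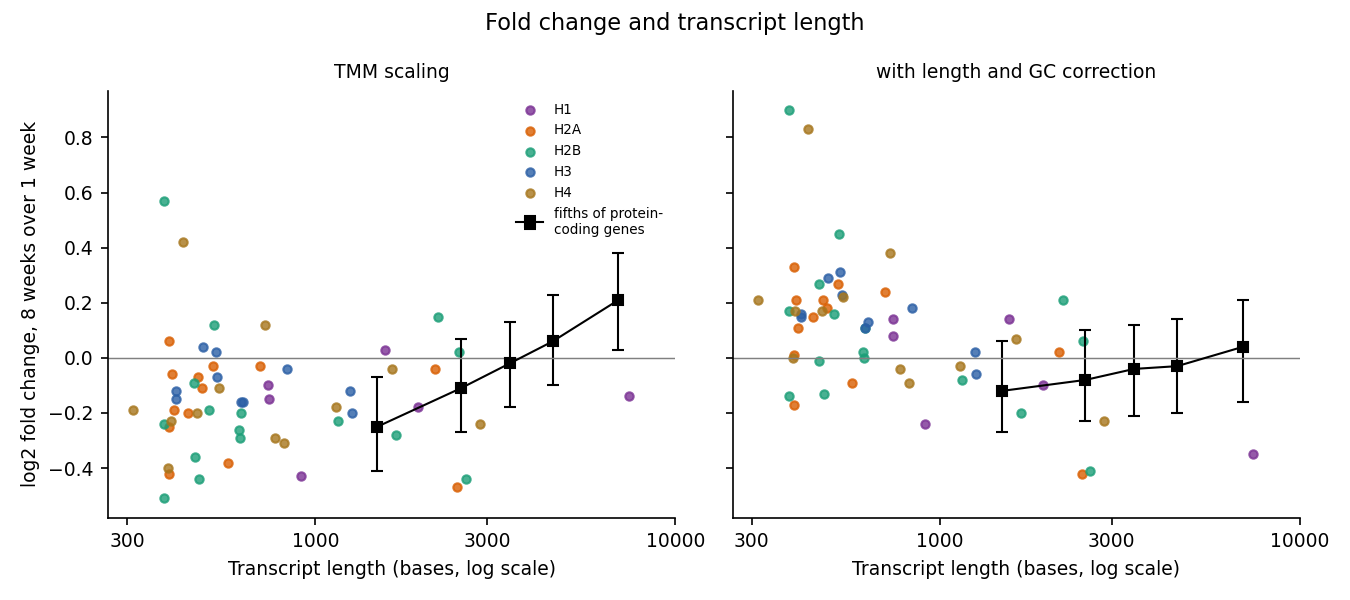
Log2 fold change of 8 weeks over 1 week (y axis) against transcript length in bases (x axis, log scale) for the tested histone genes (coloured by type), without and with the length and GC correction. Black squares are medians of 5 length classes of the protein-coding genes with their quartiles; they run from -0.25 to 0.21 on the left and from -0.12 to 0.04 on the right, where most histone genes lie above 0.

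H1 binds the linker DNA between nucleosomes. By group means its genes were the most abundant type per length of coding sequence, though in 1 week 1 H4 was higher (3569 CPM per kilobase, against 3393 for H1). H1 had 3995 ± 969 CPM per kilobase at 8 weeks and 4275 ± 800 at 1 week (SD, n = 4 each). Annotated transcripts run past the coding sequence by unlike amounts, and reads placed there can add to the counts. That of Hist1h1d has 7425 bases for 663 coding, and that of Hist4h4 has 2863 for 309. The sequence shared with other genes also differs between the types and between genes of a type, as given below. The part of both in the order of the types, and of the genes within a type, was not tested. H1 took 45.2%, 49.6%, 46.5% and 46.8% of the histone CPM in 8 weeks 1 to 4, and 38.0%, 47.3%, 54.9% and 45.8% in 1 week 1 to 4. Most of it came from 4 genes, Hist1h1c, Hist1h1d, Hist1h1e and Hist1h1b, with 28.4%, 23.5%, 21.9% and 18.7% of the H1 CPM.

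Hist1h1c encodes H1.2 and is one of the genes of this family also known to make polyadenylated mRNA. It stood at 601, 1048, 630 and 826 CPM at 8 weeks and at 383, 835, 961 and 858 CPM at 1 week. The log2 fold change was 0.03 ± 0.25 (SE; 95% interval -0.50 to 0.56; edgeR, adjusted p = 0.946). Its lowest library was 1 week 1, which lay inside the range of 8 weeks for Hist1h1d, Hist1h1e and Hist1h1b. Hist1h1d (H1.3) had 498, 848, 481 and 591 CPM at 8 weeks and 622, 634, 786 and 627 at 1 week. Hist1h1e (H1.4) had 444, 705, 489 and 581 CPM at 8 weeks and 566, 591, 790 and 563 at 1 week. Hist1h1b (H1.5) had 371, 636, 461 and 442 CPM at 8 weeks and 443, 486, 722 and 469 at 1 week. In these 3 genes the same libraries stood out, 8 weeks 2 and 1 week 3, with the others closer together, and the ages overlapped. Their log2 fold changes were -0.14, -0.18 and -0.15 (edgeR, adjusted p = 0.610, 0.484 and 0.615). Hist1h1a (H1.1) ranged from 150 to 245 CPM at 8 weeks and from 193 to 227 CPM at 1 week. Hist1h1t, known from the testis, ranged from 1.19 to 2.17 CPM at 8 weeks and from 0.805 to 3.92 at 1 week, with a log2 fold change of -0.43 and an interval of -1.40 to 0.53.

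H2A pairs with H2B in the nucleosome. Its 16 genes summed to 768, 1161, 761 and 1056 CPM at 8 weeks and to 1040, 999, 950 and 1056 CPM at 1 week, with the 2 lowest libraries both of 8 weeks. Per kilobase of coding sequence Hist2h2ac led with 676 ± 124 CPM at 8 weeks and 690 ± 91.4 at 1 week (SD, n = 4 each), followed by Hist1h2af with 606 ± 138 and 630 ± 24.9. The 2 genes do not differ beyond their spread. Hist1h2ak followed with 356 ± 61.3 and 342 ± 31.7.

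Hist2h2ac (cluster 2) had 203, 306, 242 and 295 CPM at 8 weeks and 289, 276, 215 and 289 at 1 week, and a log2 fold change of -0.03 (95% interval -0.33 to 0.27). Hist1h2af had 174, 285, 209 and 277 CPM at 8 weeks and 237, 239, 258 and 249 at 1 week, and a log2 fold change of -0.06 (-0.36 to 0.25). For both genes the libraries of 8 weeks lay on either side of those of 1 week. Hist1h2ak was the only tested H2A gene above 0, at 0.06 (-0.20 to 0.32), with 117 to 173 CPM at 8 weeks and 126 to 152 at 1 week. Hist1h2ai and Hist1h2ad had the smallest p of the H2A genes, with log2 fold changes of -0.25 and -0.38 (edgeR, adjusted p = 0.256 and 0.381). In cluster 2, Hist2h2ab ranged from 29.5 to 48.0 CPM at 8 weeks and from 29.2 to 55.3 at 1 week. In cluster 3, Hist3h2a ranged from 3.86 to 6.73 CPM and from 4.2 to 8.28 CPM. The other 4 tested H2A genes (Hist1h2ab, Hist1h2ae, Hist1h2ag and Hist1h2ah) averaged 10.8 to 39.4 CPM at 8 weeks and 11.0 to 41.3 at 1 week, with log2 fold changes of -0.19 to -0.03. Hist1h2aa, known from the testis, had at most 0.421 CPM at 8 weeks and 0.565 at 1 week and was not tested.

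H2B had the largest family and the smallest p. The 18 genes summed to 638, 892, 640 and 731 CPM at 8 weeks and to 897, 751, 711 and 783 CPM at 1 week. Per kilobase of coding sequence the highest means were those of Hist1h2bc, Hist2h2bb, Hist1h2bb and Hist1h2be, between 224 and 250 CPM at 8 weeks and between 222 and 292 CPM at 1 week, and their SDs, 23.6 to 33.3 and 32.2 to 64.8, cover the gaps between neighbours in that order. Hist1h2bc had 81.1, 105, 91.0 and 101 CPM at 8 weeks and 125, 106, 90.7 and 121 at 1 week, and a log2 fold change of -0.23 (95% interval -0.48 to 0.03). Hist2h2bb had 71.4, 90.4, 88.4 and 88.9 CPM at 8 weeks and 114, 89.5, 90.1 and 105 at 1 week, and a log2 fold change of -0.24 (-0.48 to 0.01; edgeR, adjusted p = 0.191). In both, 1 week 1 and 1 week 4 were well above the range of 8 weeks, while 1 week 3 lay inside it.

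Hist1h2bj had the smallest p of all histone genes. Its libraries read 26.1, 32.6, 27.4 and 28.2 CPM at 8 weeks and 45.8, 36.0, 28.5 and 36.2 at 1 week. Of the libraries of 1 week 3 were thus above every library of 8 weeks, and 1 week 3 lay among those of 8 weeks. The log2 fold change was -0.36 ± 0.14 (SE; 95% interval -0.65 to -0.06; edgeR, adjusted p = 0.114). With the length and GC correction it was -0.01. Hist1h2be had a log2 fold change of 0.02 (-0.37 to 0.41). Its annotated model overlaps that of Hist1h1e, so reads in the overlap may count for either gene or for neither. Hist3h2ba (cluster 3) ranged from 3.17 to 6.73 CPM at 8 weeks and from 4.45 to 5.72 at 1 week, and Hist1h2bb had a log2 fold change of -0.19 (-0.48 to 0.11). The other 4 tested H2B genes, Hist1h2bh, Hist1h2bm, Hist1h2bp and Hist1h2br, averaged 0.828 to 63 CPM at 8 weeks and 0.750 to 58.0 at 1 week, with log2 fold changes of -0.28 to 0.15. Hist1h2ba, known from the testis, had at most 0.0702 CPM at 8 weeks and 0.534 at 1 week and was not tested.

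H3 carries many of the methyl and acetyl marks of chromatin. Its 11 genes were the least abundant type per coding length, with 1202 ± 285 CPM per kilobase at 8 weeks and 1300 ± 94.9 at 1 week. The limits given for H1, annotated length and shared sequence, hold for this ranking too. Sums were 410, 657, 413 and 481 CPM at 8 weeks and 588, 506, 518 and 509 at 1 week, with 8 weeks 2 the highest of its age and 1 week 1 the highest of the other. Hist1h3b led with 340 ± 82.3 CPM per kilobase at 8 weeks and 380 ± 23.4 at 1 week, followed by Hist1h3d with 200 ± 40.1 and 217 ± 20. Hist1h3b had 113, 183, 112 and 147 CPM at 8 weeks and 168, 146, 155 and 152 at 1 week, so the ages overlapped. The log2 fold change was -0.16 (95% interval -0.47 to 0.15; edgeR, adjusted p = 0.492). Hist1h3d, Hist1h3f and Hist1h3e had log2 fold changes of -0.12, -0.20 and -0.04, all with intervals that reach 0. The other 5 tested H3 genes of cluster 1 averaged 6.49 to 37.6 CPM at 8 weeks and 7.21 to 38.8 at 1 week, with log2 fold changes of -0.16 to 0.02. Of cluster 2, Hist2h3b stood at 0.04 (-0.29 to 0.38), and Hist2h3c2 had at most 0.970 CPM at 8 weeks and 0.534 at 1 week and was not tested.

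H4 pairs with H3 at the centre of the nucleosome, and its genes encode the same protein almost throughout. Their sums were 685, 832, 759 and 740 CPM at 8 weeks and 1103, 795, 685 and 875 CPM at 1 week, a ratio of means of 0.872. Library 1 week 1 stood well above the other 7, while 1 week 3 was level with the lowest library of 8 weeks. Hist1h4d alone took 38.6% of the H4 CPM. It reached 948 ± 138 CPM per kilobase at 8 weeks and 1072 ± 133 at 1 week (SD, n = 4 each), and the next gene, Hist1h4h, 303 ± 24.5 and 349 ± 86.9. Hist4h4 (230 ± 35.1 and 271 ± 89.7) and Hist1h4c (184 ± 16.9 and 228 ± 68.9) came after Hist1h4h, and each was below it in every library. At 8 weeks Hist1h4h had 86.1 to 101 CPM, Hist4h4 59.7 to 85.8 and Hist1h4c 50.2 to 62.6. At 1 week the range of Hist1h4h overlapped those of both.

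Hist1h4d had 262, 347, 256 and 308 CPM at 8 weeks and 386, 336, 289 and 315 at 1 week, with overlap between the ages. Its log2 fold change was -0.18 (95% interval -0.45 to 0.09; edgeR, adjusted p = 0.376). Hist1h4f had 37.9, 40.8, 45.1 and 30.9 CPM at 8 weeks and 68.7, 49.6, 33.4 and 53.1 at 1 week. Its log2 fold change was -0.40 ± 0.18 (SE; -0.79 to -0.01; edgeR, adjusted p = 0.170). With the length and GC correction it was 0.00. Here again 1 week 3 fell inside the range of 8 weeks and the other 3 libraries of 1 week lay above it. Hist1h4j, Hist1h4c and Hist1h4h had log2 fold changes of -0.29, -0.31 and -0.20. The other 5 tested H4 genes of cluster 1 averaged 3.34 to 46.8 CPM at 8 weeks and 3.09 to 54.9 at 1 week. Their log2 fold changes ran from -0.23 for Hist1h4b to 0.42 for Hist1h4n, with 3 of 5 below 0. Outside cluster 1, Hist2h4 stood at -0.04 (-0.48 to 0.39) and Hist4h4 at -0.24 (-0.67 to 0.19).

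Libraries of the same age stood apart over the 57 tested genes. Library 8 weeks 2 was the highest of the 8 for 20 genes and 1 week 1 for 24, while 8 weeks 3 was the lowest for 21 and 8 weeks 1 for 19. The median histone gene stood 0.23 (log2) above its own median over the libraries in 8 weeks 2 and 0.27 above it in 1 week 1, and 0.25 and 0.20 below it in 8 weeks 1 and 8 weeks 3 (medians of -0.25 and -0.20). Leaving out 8 weeks 2 gave a median log2 fold change of -0.27, with 51 of 57 genes below 0, while leaving out 8 weeks 1 or 1 week 1 gave -0.08 and -0.09. Without 8 weeks 2, 17 of 57 histone genes, all lower at 8 weeks, had an unadjusted p under 0.05, beside 31.8% of all genes. In that fit 1 histone gene, Hist1h2bg, was called (log2 fold change -0.46, edgeR, adjusted p = 0.0405), beside 1891 of all 15016 genes tested. With all libraries Hist1h2bg had 45.0, 65.0, 42.3 and 45.8 CPM at 8 weeks and 68.2, 52.7, 70.0 and 51.5 at 1 week, so 8 weeks 2 alone reached into the range of 1 week. It was named after its values were seen.

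**Figure D4:**
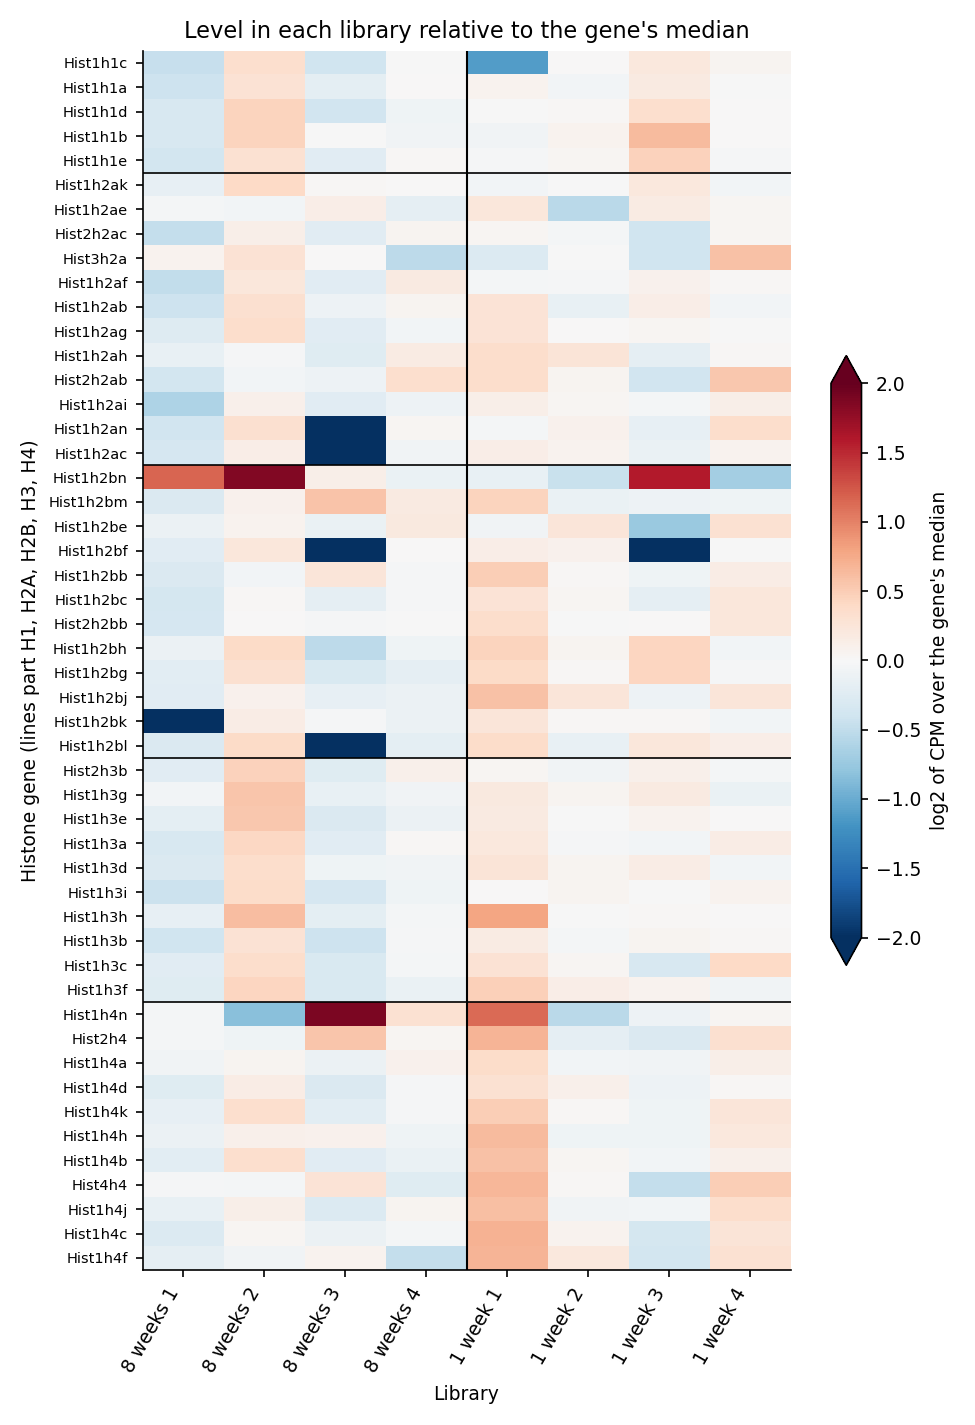
Level of each histone gene in each library as log2 of its CPM over the gene's median across the 8 libraries (colour, held at -2 and 2), for the 50 genes with a median of at least 5 CPM; rows are genes by type and columns are libraries, 8 weeks left of the line. Columns 8 weeks 2 and 1 week 1 are mostly red, and 6 cells in 5 genes are dark blue.

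Some copies nearly vanished from certain libraries in which most histone genes did not. A library under 25% of the gene's median over the 8 libraries was found in 5 of the 50 histone genes with a median of at least 5 CPM (10%), and in 19 of the 10326 other genes of that level (0.184%). These 5 genes were chosen by this pattern, after their values were seen. Hist1h2ac had 81.0, 112, 11.7 and 96.4 CPM at 8 weeks, where 11.7 CPM in 8 weeks 3 rests on 181 counts, and 93.0 to 111 CPM at 1 week. Hist1h2an had 53.1, 87.1, 6.33 and 71.4 CPM at 8 weeks, with 98 counts in 8 weeks 3, and 62.2 to 88.7 CPM at 1 week. Hist1h2bl had 12.3, 19.7, 2.13 and 13.1 CPM at 8 weeks, with 33 counts in 8 weeks 3, and 13.6 to 19.5 CPM at 1 week. The library 8 weeks 3 is the low one in all 3 of these genes, and it is low for Hist1h2bf as well.

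Hist1h2bk was low in another library, with 3.16, 47.1, 41.8 and 39.2 CPM at 8 weeks (58 counts in 8 weeks 1) and 40.9 to 49.9 CPM at 1 week. Hist1h2bf was low in 8 weeks 3 and in 1 week 3, with 80.9, 111, 11.0 and 94.5 CPM at 8 weeks and 104, 99.9, 17.4 and 94.3 CPM at 1 week. Hist1h2bn did the opposite: it had 87.7, 141, 42.4 and 35.9 CPM at 8 weeks and 35.4, 28.6, 118 and 24.4 CPM at 1 week, with 8 weeks 1, 8 weeks 2 and 1 week 3 well above the rest. The counts behind the 6 low values were 33 to 216.

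Single libraries decide the fold changes of these genes. The log2 ratio of mean CPM was -0.47 for Hist1h2ac with all libraries and -0.11 without 8 weeks 3. It was -0.42 and -0.05 for Hist1h2an, and -0.51 and -0.16 for Hist1h2bl. For Hist1h2bk it was -0.43 with all libraries and -0.05 without 8 weeks 1. For Hist1h2bf it was -0.09 with all and -0.06 without the 2 low libraries. With these 5 genes and Hist1h2bn left out of the sums, the ratio of mean summed CPM was 0.967 for H2A and 0.892 for H2B, against 0.926 and 0.924 with them.

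The first 150 bases of the coding sequence show how alike the H2B copies are. Bases that differ from Hist1h2bk stand in capitals, on the sense strand of GRCm38 as annotated in GENCODE M21. Hist1h2bk begins at chr13:22035887-22036036 (plus), Hist1h2bl at chr13:21715994-21716143 (minus), Hist1h2bf at chr13:23574041-23574190 (minus), Hist1h2bn at chr13:21754123-21754272 (plus) and Hist2h2be at chr3:96221166-96221315 (plus).
Hist1h2bk: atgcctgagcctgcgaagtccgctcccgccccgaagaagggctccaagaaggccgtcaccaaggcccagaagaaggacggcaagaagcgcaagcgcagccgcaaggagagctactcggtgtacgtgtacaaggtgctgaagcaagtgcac
Hist1h2bl: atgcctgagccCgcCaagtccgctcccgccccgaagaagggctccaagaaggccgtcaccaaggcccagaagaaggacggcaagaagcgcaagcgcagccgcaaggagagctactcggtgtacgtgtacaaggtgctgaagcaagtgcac
Hist1h2bf: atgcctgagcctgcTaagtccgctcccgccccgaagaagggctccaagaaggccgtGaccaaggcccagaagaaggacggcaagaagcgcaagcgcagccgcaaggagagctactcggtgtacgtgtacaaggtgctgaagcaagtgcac
Hist1h2bn: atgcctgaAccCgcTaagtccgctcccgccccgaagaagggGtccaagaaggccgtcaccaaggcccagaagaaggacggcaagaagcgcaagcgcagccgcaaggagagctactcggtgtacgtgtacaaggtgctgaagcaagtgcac
Hist2h2be: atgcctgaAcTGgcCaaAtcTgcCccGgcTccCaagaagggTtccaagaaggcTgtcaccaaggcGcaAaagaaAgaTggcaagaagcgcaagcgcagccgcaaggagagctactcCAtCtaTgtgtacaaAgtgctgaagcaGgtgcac

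Over these bases Hist1h2bl and Hist1h2bf differed from Hist1h2bk at 2 positions each, Hist1h2bn at 4 and Hist2h2be, of cluster 2, at 22. Short reads from such stretches can be placed on more than 1 gene. The share of 50-base words of a transcript that also occur in a transcript of another gene was 82.8% for Hist1h2bl, 85.8% for Hist1h2an, 74.2% for Hist1h2bk, 65.8% for Hist1h2bf, 86.4% for Hist1h2bn and 14.1% for Hist1h2ac. The median over the 45 histone genes of that level without such a low library, Hist1h2bn included, was 49.3%, with a range of 0% to 100%. By type the median was 1.12% for H1, 65.9% for H2A, 47.5% for H2B, 60.4% for H3 and 39.5% for H4. Within the types it ran from 0% to 32.0% in H1 (Hist1h1e the highest), and single genes of the other types were low as well, such as Hist2h2be with 0%, Hist2h4 with 1.01% and Hist1h4d with 10.2%. How reads with several placements were counted is not given in the sources used here, and the part of shared sequence in the low libraries was not tested.

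Some histone genes also make polyadenylated mRNA outside S phase, in differentiated cells. Of the 5 such genes listed (Hist1h1c, Hist1h2ac, Hist1h2bc, Hist1h2bk and Hist2h2be) 0 were called, and their median log2 fold change was -0.44, which includes Hist1h2ac and Hist1h2bk with their low libraries. With the length and GC correction that median was -0.13. Hist2h2be stood at 2.94, 2.09, 2.26 and 3.86 CPM at 8 weeks and 4.56, 4.37, 2.91 and 3.29 at 1 week, with a log2 fold change of -0.44 (95% interval -1.08 to 0.20). The 7 genes that were not tested, among them those of the testis list other than Hist1h1t, had 12 (Hist1h2ba) to 72 (Hist1h2ap) counts over all 8 libraries.

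Genes around histone production were set beside the histone genes as lists. For the transcription and 3′ processing of histone mRNA, 3 of 30 tested genes were higher at 8 weeks, 0 were lower, and the median log2 fold change was 0.02. Over all genes tested 6.55% were called in either direction (484 of 14533 higher), against which this and the following counts of called list genes stand. Ice1, a part of the little elongation complex, had 89.5, 67.9, 81.1 and 75.9 CPM at 8 weeks and 46.1, 58.1, 53.2 and 53.2 at 1 week (log2 fold change 0.58 ± 0.11 SE; edgeR, adjusted p = 0.0168). Pou2f1, the octamer-binding activator also known as Oct1, rose by 0.47 (adjusted p = 0.0437, edgeR). Tut7 (Zcchc6), an enzyme that adds uridines to RNA ends, rose by 0.35 (edgeR, adjusted p = 0.0338). For these 3 genes the ages did not overlap. For 2 central factors the ages did not differ beyond the error. Slbp stood at 39.2 to 46.2 CPM at 8 weeks and 38.4 to 44.8 at 1 week (log2 fold change -0.01, 95% interval -0.22 to 0.20). Npat, the coactivator of histone genes at the S phase, stood at 25.1 to 33.2 and 26.8 to 32.7 CPM (0.03, -0.23 to 0.28). With the length and GC correction 1 of the 3 calls was left, and the median was -0.06. Leaving out 1 library at a time raised the adjusted p of edgeR to as much as 0.0556 for Ice1 (call lost without 8 weeks 1, 8 weeks 3 or 1 week 1), 0.136 for Pou2f1 and 0.101 for Tut7.

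Replacement variants, most of which are made also outside S phase from polyadenylated mRNA, gave 0 calls among 11 tested by edgeR. Of the 11, 10 were below 0, and the median log2 fold change was -0.25 (-0.21 with the length and GC correction). H2afz (H2A.Z) had 138, 195, 128 and 176 CPM at 8 weeks and 252, 193, 205 and 217 at 1 week, with overlap through 8 weeks 2 and 1 week 2. Its log2 fold change was -0.44 ± 0.14 (SE; edgeR, adjusted p = 0.0675). H2afv and H2afj stood at -0.38 and -0.25, and H3f3b (H3.3) at -0.27 (edgeR, adjusted p = 0.0798, 0.128 and 0.175).

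Histone chaperones, which carry histones to DNA, gave 1 call in each direction among 27 tested, with a median of -0.04. Nasp, a chaperone of H3 and H4, fell to 111, 141, 117 and 132 CPM at 8 weeks, against 197, 156, 174 and 145 at 1 week (log2 fold change -0.42 ± 0.12 SE; edgeR, adjusted p = 0.0473). The ages did not overlap, with 141 and 145 CPM as the nearest libraries. Hjurp, the chaperone of the centromeric variant of H3, rose to 194, 168, 184 and 165 CPM at 8 weeks, against 101, 125, 162 and 111 at 1 week (0.51 ± 0.13 SE; edgeR, adjusted p = 0.0421). Asf1a stood at -0.31 (edgeR, adjusted p = 0.0923). Neither call was left with the length and GC correction, where the 2 genes stood at -0.51 and 0.43, and each was lost on leaving out any of 6 single libraries, 5 of them shared (adjusted p of edgeR up to 0.145 and 0.122).

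In DNA replication 1 of 36 tested genes was called, Dnmt1, the maintenance DNA methyltransferase, which rose by 0.36 (edgeR, adjusted p = 0.0442), and the median was 0.02. Pcna, the sliding clamp, had 71.9, 92.4, 71.8 and 74.9 CPM at 8 weeks and 116, 87.7, 99.4 and 78.3 at 1 week (-0.29; edgeR, adjusted p = 0.158). Pole and Ung stood at 0.39 and -0.65 (adjusted p = 0.0829 and 0.0826, edgeR). In mitosis 1 of 22 was called, the kinesin Cenpe (0.46; edgeR, adjusted p = 0.0389), and the median was 0.10 with 18 of 22 above 0. Mki67, a marker of cycling cells, had 952, 1363, 1307 and 1580 CPM at 8 weeks and 981, 1170, 1539 and 958 at 1 week (0.16; 95% interval -0.22 to 0.55). Top2a stood at 0.32, Kif11 at 0.36 and Foxm1 at 0.42 (edgeR, adjusted p = 0.120, 0.0909 and 0.0773). Among genes of quiescence and arrest 1 of 10 was called, Cdkn1c, an inhibitor of cyclin-dependent kinases, which fell by 1.04 on the log2 scale (edgeR, adjusted p = 0.0455). Cdkn1a and Rbl2 stood at -0.41 and 0.30 and were not called. The remaining gene of that list, Cdkn2a, had too few counts to be tested and is named after its values were seen. It had 0.599, 1.27, 1.42 and 1.75 CPM at 8 weeks and 0.268, 0.226, 0.0807 and 0.0890 at 1 week, and a log2 fold change of 2.92 with an adjusted p of 0.00518 in the authors' deposited table. With the length and GC correction Dnmt1, Cenpe and Cdkn1c were not called either. Leaving out a single library ended these calls for 6, 6 and 7 of the 8 libraries (adjusted p of edgeR up to 0.134, 0.110 and 0.133).

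**Figure D5:**
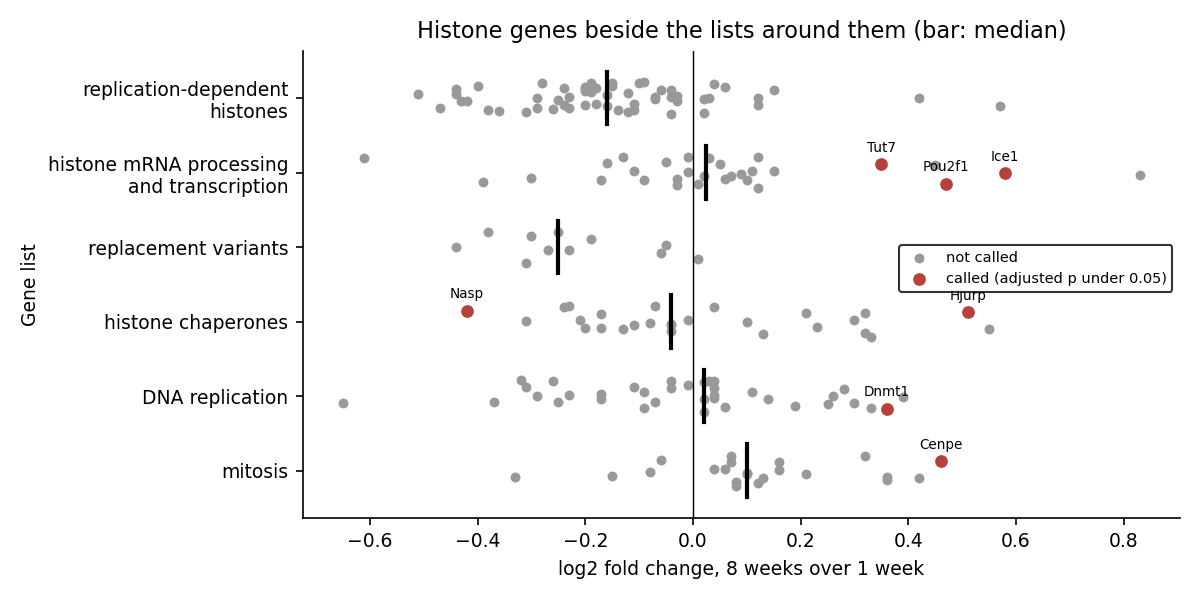
Log2 fold change of 8 weeks over 1 week (x axis) for the tested histone genes and 5 gene lists (rows), with 1 point per gene, red where called by edgeR, and a black bar at the median. Medians run from -0.25 for the replacement variants to 0.10 for mitosis, and the 0 calls among the histone genes stand beside 1 to 3 among the processing, chaperone, replication and mitosis lists.

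Markers of other cell types were measured as well. Hemoglobin and other erythroid markers summed to 22.9 to 71.4 CPM at 8 weeks and 3.38 to 13.7 at 1 week, with 3 of 5 called higher. Fibroblast markers summed to 399 to 776 CPM at 8 weeks and 923 to 1160 at 1 week, nearly all of it Dcn, the 1 tested gene of 5, which was called lower (log2 fold change -0.87). The 4 other fibroblast markers (Col1a1, Col1a2, Pdgfra and Pdgfrb) had at most 0.646 CPM at 8 weeks and 0.895 CPM at 1 week. Leukocyte markers summed to 0.842 to 5.30 CPM and 0.537 to 8.28 CPM, with 0 called. Endothelial markers summed to 3.82 to 6.60 CPM and 5.16 to 7.69 CPM, also with 0 called. The sums of melanocyte, muscle and salivary gland markers stayed at or under 3.38 CPM in every library, with 0 called. The part of such cells in the histone values was not tested.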

How the data were processed

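The libraries hold total RNA from buccal epithelial cells of 4 mice at 8 weeks and 4 at 1 week, separate animals per the series' design text. The authors deposited raw read counts per gene, a normalized signal (counts over 1 size factor per library, 0.838 to 1.36, as the deposited values show), and log2 fold changes with p-values and adjusted p-values. Tools in the submitters' processing notes are TopHat2 2.1.1, HTSeq 0.6.0 and cutadapt 2.10, with DESeq2 1.26.0 and bcl2fastq 2.20.0.422, and the build is GRCm38. The annotation release, the strand setting and the handling of reads with several placements are not given in the sources used here. Of the table's per-sample columns 0 were left unmatched.

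Members were matched by Ensembl identifier to GENCODE M21, which held 99.8% of the identifiers and the same start and end for all 64 members. Tests used edgeR 4.0.16 (under R 4.3.3) on the counts: filterByExpr (minimum count 10, minimum total 15), TMM scaling and the two-sided quasi-likelihood F test, with Benjamini-Hochberg adjustment over all 14533 genes tested and calls at an adjusted p under 0.05. Errors of CPM are SDs over 4 libraries, and SEs come from the F statistic. Per-kilobase values divide CPM by coding length. Alternatives used other scalings and filters, DESeq2 1.42.0, limma-voom (limma 3.58.1), a replicate block, each library left out, and an offset by splines of transcript length and GC content (4 degrees of freedom each). The fit was tested on simulated data. The members and the gene lists were chosen with earlier results of these data known. Genes named were all called genes, per type the 4 most abundant and the 2 of smallest p, all of clusters 2 to 4, the polyadenylated and testis lists, and of other lists the 3 of smallest p and 7 set genes; exceptions are said to be named after their values were seen. Stem-loops and shared 50-base words were read from the longest GENCODE M21 transcript of each gene. A result for 1 marker gene is not reported here.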

Additional observations from a re-analysis of the deposited data

Results flagged for a closer look

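Dixon's rule was applied to the 4 libraries of each age for each tested histone gene and for the sum of each type. It marked a library as far from the other 3 in 17 of 124 groups, where chance marks about 1 in 20. High libraries of 1 week were 1 week 3 for Hist1h1b (722 CPM), Hist1h1d (786), Hist1h1e (790) and Hist1h2bn (118), and 1 week 1 for Hist1h2ag (45.3 CPM), Hist1h2bm (76.0), Hist1h3h (10.5) and the sum of H3 (588). High in 8 weeks 2 were Hist1h2bg (65.0 CPM), Hist1h3e (84.7), Hist1h3g (51.5), Hist1h3h (9.35) and Hist1h4b (60.7), and Hist2h4 was high in 8 weeks 3 (78.5 CPM). Low libraries were 1 week 3 for Hist1h2bf (17.4 CPM), 8 weeks 2 for Hist1h2br (0.299 CPM) and 8 weeks 1 for Hist2h2bb (71.4 CPM). Values of the same library are not independent of each other. Hist1h2ag, Hist1h2bm, Hist1h2br, Hist1h3g and Hist1h3h are named here for their marks alone.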

How the results depend on the processing

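Of 19 alternatives, 17 called 0 histone genes by the tool named in each. Hist1h2bn (1.40, adjusted p = 0.0343) was the 1 histone gene called higher, in edgeR with a replicate block by library-name numbers. That fit held only libraries whose name number occurs at both ages, so 8 weeks 3 and 1 week 3 were left out. Hist1h2bn had 118 CPM in 1 week 3, far above the rest of that age. The parts of block and omission in this call were not told apart. Hist1h2bg was the 1 called lower, without 8 weeks 2. Leaving out any other single library gave 0. No pairing of the mice by number was seen: deviations of same-numbered libraries correlated at -0.314, -0.102, 0.001 and -0.103 by title. No library of 8 weeks correlated best with the library of 1 week of its own title number. By library name the correlations were -0.314, -0.102 and -0.103, and the best match was not examined. With 4 libraries per age such correlations cannot exclude a shared batch. With the replicate block by titles 78 genes were called higher and 83 lower, and with that block and length and GC correction 52 and 67. By library names, without 8 weeks 3 and 1 week 3, the numbers were 26 and 66. The correction alone left 167 and 211. DESeq2 called 987 and 1082, limma-voom 772 and 868. Library size alone called 255 lower and no filter 265. Leaving out 1 library gave 48 (8 weeks 3) to 843 (8 weeks 2) higher and 43 to 1048 lower by the same libraries.

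The median log2 fold change of the histone genes stayed between -0.27 and -0.08 on leaving out a library. It became 0.11 with the length and GC correction and also with block and correction (H2B 0.04 and 0.05, H3 0.16 and 0.14, H4 0.12 in both). The cause was not tested. With library size alone 38 of 57 were below 0. The ratio of mean summed CPM stayed between 0.837 and 0.974 on omissions. This range shows the weight of single libraries and is not an interval for the difference between the ages. A difference that 4 libraries per age could not show is not excluded.

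Among the lists, genes called higher numbered 0 for processing, chaperones, replication and mitosis under both blocks and under block and correction. The correction alone left 1 for processing and 0 for chaperones, replication and mitosis. No filter left 1 for processing and 0 for replication. DESeq2 gave 2 for replication and 4 for mitosis, and library size alone 2 for replication. Chaperones called lower were 0 under library size alone, no filter, the blocks and the correction. DESeq2 called 1 replication gene and 2 variants lower, limma-voom 2 variants. Omissions gave 0 to 4 higher for processing, 0 to 1 for chaperones in each direction, 0 to 1 in each direction for replication, 0 to 5 for mitosis, and 0 to 2 variants lower.

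Signs of small, uncalled fold changes turned as follows. With the length and GC correction, and then with block and correction, log2 fold changes were 0.08 and 0.10 for Hist1h1b, 0.21 and 0.21 for Hist1h2af, 0.01 and 0.00 for Hist1h2ai, 0.15 and 0.16 for Hist2h2ab, 0.27 and 0.27 for Hist2h2ac, and 0.02 and 0.05 for Hist3h2a. They were 0.16 and 0.16 for Hist1h2bb, 0.17 and 0.17 for Hist2h2bb, 0.11 and 0.09 for Hist1h3b, 0.02 and 0.01 for Hist1h3d, 0.18 and 0.15 for Hist1h3e, and 0.00 and 0.01 for Hist1h4f. They were 0.17 and 0.17 for Hist1h4h, 0.07 and 0.08 for Hist2h4, 0.27 and 0.15 for Hist1h2bf, -0.19 and -0.19 for Npat, and -0.02 and -0.04 for Mki67. Hist3h2ba stood at 0.02 with the correction and Slbp at 0.00 with block and correction. Library size alone gave 0.03 for Hist1h2af, 0.07 for Hist2h2ac and Hist2h4, 0.06 for Hist3h2a and Hist1h3e, 0.04 for Hist1h2bf and 0.09 for Slbp, and the stricter filter 0.00 for Slbp. Limma-voom gave -0.03 for Hist1h1c and Hist2h3b, -0.01 for Hist1h2be and 0.10 for Hist2h4. The replicate block by library names, without 8 weeks 3 and 1 week 3, gave 0.02 for Hist1h1b, 0.01 for Hist1h1d and Hist1h3e, and -0.11 for Hist1h2be. Omissions gave ranges of -0.32 to 0.03 for Hist1h1b, -0.19 to 0.16 for Hist1h1c, -0.70 to 0.01 for Hist1h1t, -0.17 to 0.07 for Hist1h2af, -0.07 to 0.13 for Hist1h2ak and -0.16 to 0.14 for Hist1h2be. For Hist1h2bf they ran from -0.42 to 0.27, for Hist1h3e from -0.27 to 0.05, for Hist2h2ac from -0.12 to 0.07, for Hist2h3b from -0.12 to 0.13, for Hist2h4 from -0.21 to 0.17, for Hist3h2a from -0.16 to 0.20, for Npat from -0.03 to 0.10 and for Slbp from -0.06 to 0.03.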
